A study of Rattus norvegicus with 12 samples.

Results

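Brain-derived neurotrophic factor (Bdnf), its relative neurotrophin-3 (Ntf3), their receptors and the peptide precursor Vgf were followed in the cortex of aged and young rats. Every probe set that the array annotation assigns to Bdnf, Ntf3, Ntrk2, Ntrk3, Ngfr, Sort1 or Vgf was taken, which gave 13 of the 31099 probe sets and 7 of the 14218 genes with a probe set of their own. A probe set is a group of short probes matching part of a transcript, and its signal is an intensity on a linear scale.

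The aged group was 6 male Fischer 344 rats labelled 21 to 23 months old, and the young group was 6 males of the same strain labelled 3 to 5 months old, each with 1 Affymetrix RAE230 2.0 array. According to the methods, all animals carried a telemetry implant for sleep recording and were trained in the water maze, and tissue was collected immediately after the probe trial. The tissue is parietal cortex by the methods and the sample titles, but frontal cortex by the tissue entry of the same labels. Both groups therefore share the implant, the training and the time of collection, and none of the values below is from an untrained animal.

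Neurotrophins are secreted proteins made as larger precursors that proteases cut to the mature form. Mature Bdnf acts through the receptor tyrosine kinase TrkB (encoded by Ntrk2) and neurotrophin-3 mainly through TrkC (Ntrk3), which feed the Ras and MAP kinase, PI3 kinase and Akt, and phospholipase C gamma branches, while the precursors act through p75 (Ngfr) together with sortilin (Sort1). In cortex, Bdnf is made by excitatory neurons, its transcription follows neuronal activity from several start sites, and Vgf is a neuropeptide precursor that Bdnf and activity are known to induce.

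Because activity reaches Bdnf and Vgf partly through CREB, which binds the cyclic AMP response element, the bases just before their start sites are shown from RefSeq (rat build GRCr8). The first window precedes 1 of the 6 Bdnf starts on chromosome 3 (chr3:116637738-116637857, plus strand) and the other precedes the Vgf start on chromosome 12 (chr12:25277021-25277140, minus strand). Both run 5′ to 3′ and end at the last base before the start. Capitals mark the full element TGACGTCA in Vgf and its half-site CGTCA in Bdnf.
Bdnf: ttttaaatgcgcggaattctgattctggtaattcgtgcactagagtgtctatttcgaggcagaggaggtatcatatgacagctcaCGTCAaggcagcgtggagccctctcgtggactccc
Vgf: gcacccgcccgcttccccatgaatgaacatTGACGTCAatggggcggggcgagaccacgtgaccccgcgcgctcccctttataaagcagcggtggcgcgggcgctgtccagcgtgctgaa

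In the 250 bases before each start, searched on both strands, the Vgf window held the full element, with 82 bases between its end and the start, and an E-box, CACGTG, with 59 bases between. The full element contains the half-site on each strand, so these matches overlap. Of the 6 Bdnf windows, 1 held the half-site, with 30 bases between its end and the start, and the other 5 held none of the 3 motifs. The 3 Ntf3 windows and the 1 Sort1 window held none either, which says only that these letters are not there. Over 33469 such windows of rat genes, 1.59% held the full element, 18.2% held the half-site as CGTCA or TGACG, and 5.59% held the E-box. A match is a description of the sequence and not a measured binding site.

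Of the 13 probe sets, 12 had a signal above 19.7, the cutoff used here, in 3 or more rats and were tested. None passed an adjusted p of 0.05 with limma, and 1 of the 12 (8.33%), a Bdnf probe set that was lower in aged rats, had an unadjusted p up to 0.05. Over all 28193 probe sets tested, 0.0248% passed the adjusted threshold. At the unadjusted threshold 2.13% were lower in aged rats and 5.67% were higher. By their means 3 of the 12 probe sets were higher in aged rats and 9 were lower, and the median log2 difference was -0.10, against 57.7% higher, 42.3% lower and a median of 0.03 over all probe sets. In all 13 the range of the aged rats overlapped that of the young rats. Non-overlap was rare in general: every aged rat lay below every young rat for 0.241% of all genes tested by their brightest probe set. The share with every aged rat above every young rat was not counted. Differences are aged minus young on the log2 scale throughout, with n = 6 rats per group. In tissue RNA, fewer cells of a type and less RNA per cell cannot be told apart.

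**Figure D1:**
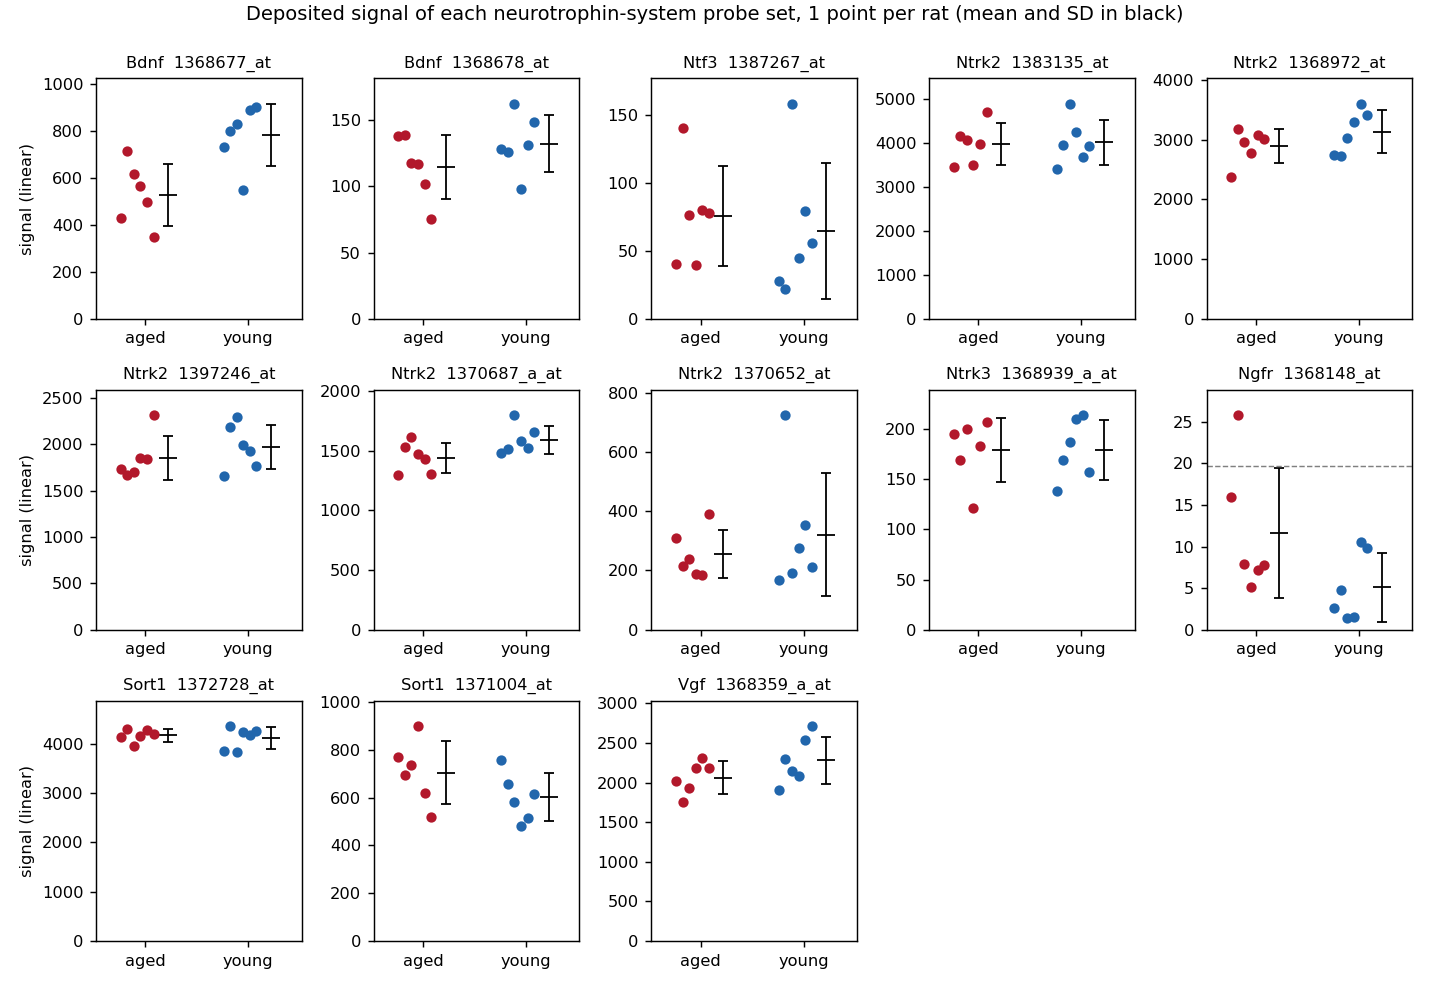
Deposited signal (y axis, linear) of each of the 13 probe sets in aged (red, left) and young (blue, right) rats, with 1 point per rat, the mean and SD of each group in black, and the cutoff of 19.7 as a dashed line in the Ngfr panel. For Bdnf 1368677_at, 5 of the 6 young rats lie above the highest aged rat, while in the other panels the groups overlap more.

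Bdnf, encoded at chr3:116619633-116670212 (GRCr8), was represented by 2 probe sets, and both had lower means in aged rats. With the brighter one, 1368677_at, the lowest, median and highest signals were 346, 532 and 712 in aged rats, against 547, 813 and 899 in young rats. Young rat 4, at 547, was the only young rat inside the aged range, and all 6 aged rats lay below the young median. The mean was 528 ± 132 in aged rats and 782 ± 131 in young rats (SD). The difference of the mean log2 signals was -0.59 (SE 0.18, 95% interval -0.98 to -0.19), which is a ratio of geometric means of 0.666. Its unadjusted limma p was 0.00702, and its adjusted p over all probe sets was 0.443, so the difference did not pass the test. It ranked 446th of the 28193 probe sets by p. An exact two-sided permutation test of this 1 value over every split of the 12 rats into 6 and 6 gave p = 0.0152, where the smallest possible was 0.00216.

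The second Bdnf probe set, 1368678_at, was dim. Its signal was 75.2 to 139 (median 117) in aged rats, against 98.2 to 162 (median 130) in young rats. The groups overlapped over most of their ranges. The log2 difference was -0.22 (SE 0.16, 95% interval -0.57 to 0.14, limma adjusted p = 0.792). It was -0.10 without aged rat 6. The 2 probe sets varied together across rats after the age means were removed (r = 0.74, rho = 0.64), with a permutation p of 0.006, which was 0.072 after adjustment over 12 pairs of probe sets of the same gene. This relation rested largely on aged rat 6 and young rat 4, without which r was 0.21. Which transcripts or exons each of the 2 probe sets reads was not analysed here.

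**Figure D2:**
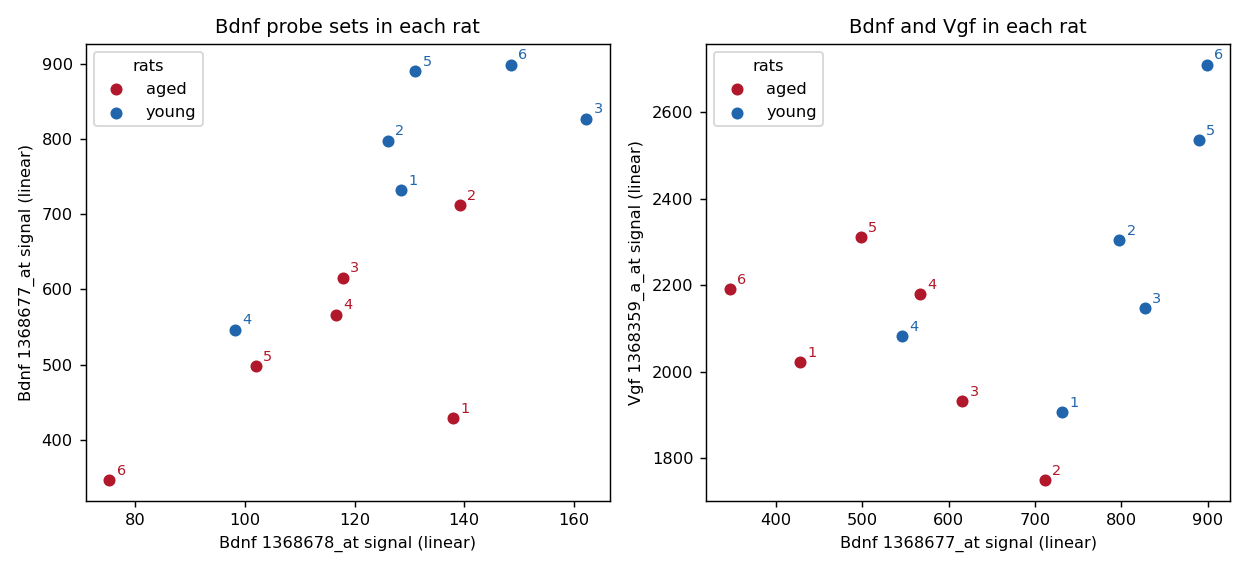
Signals (linear) of the rats, with each rat's number beside its point and aged rats in red and young rats in blue. The left panel plots Bdnf 1368677_at (y axis) against Bdnf 1368678_at (x axis), where aged rat 6 and young rat 4 are the lowest of their groups, and the right panel plots Vgf (y axis) against Bdnf 1368677_at (x axis), where r was -0.64 in aged and 0.65 in young rats.

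Bdnf stayed lower by the mean in aged rats when each of the 12 rats was left out in turn, with log2 differences of -0.69 to -0.47. Aged rat 6 had the lowest Bdnf signal and an array that was among the least like the others, and without it the log2 difference was -0.47 (limma unadjusted p = 0.0131). Without aged rats 2 and 6, whose arrays had the lowest median correlation with the rest, it was -0.56. By the number of the sample code, the rats form a lower series of 4 aged and 3 young and a higher series of 2 aged and 3 young, in which Bdnf differed by -0.46 and -0.87, with unadjusted limma p-values of 0.0392 and 0.0420. The dimmer probe set differed by -0.11 in the lower and -0.50 in the higher series. The age-centred correlation of the 2 Bdnf probe sets was r = 0.03 in the lower series. It was 0.97 in the higher series, which holds aged rat 6 and young rat 4. What the code series stand for is not given in the sources used here. With the mean of both Bdnf probe sets the log2 difference was -0.40 and the unadjusted limma p was 0.0264.

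Ntf3 (chr4:160601161-160670623), the ligand of TrkC, had a low and scattered signal. It was 39.2 to 140 (median 76.9) in aged rats, against 21.7 to 158 (median 50.2) in young rats. The spread among rats of 1 group exceeded the distance between the groups, with a coefficient of variation of 48.5% in aged and 77.7% in young rats. The log2 difference was 0.41 with an SE of 0.47 (95% interval -0.62 to 1.45, limma adjusted p = 0.899), so a change of either sign and up to the size seen for Bdnf lies within the interval. Single rats moved it, to 0.16 without young rat 2, 0.21 without aged rat 2, 0.24 without young rat 1 and 0.74 without young rat 3.

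Ntrk2 (chr17:5560558-5875899), the TrkB gene, had 5 probe sets, and the means of all 5 were lower in aged rats by small amounts. The brightest, 1383135_at, was 3454 to 4718 (median 4024) in aged rats, against 3415 to 4885 (median 3935) in young rats. The log2 difference was -0.01 (SE 0.10, 95% interval -0.24 to 0.21, limma adjusted p = 0.992), and it was 0.04 without young rat 3. The narrowest interval among the 5 belonged to 1370687_a_at. It had a signal of 1292 to 1612 (median 1451) in aged rats, against 1477 to 1795 (median 1553) in young rats, with 1 aged rat above the young median. Its log2 difference was -0.15 (SE 0.076, 95% interval -0.31 to 0.02, limma adjusted p = 0.690).

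Of the other Ntrk2 probe sets, 1368972_at averaged 2900 ± 285 in aged rats and 3137 ± 359 in young rats (SD), with a log2 difference of -0.11 (limma adjusted p = 0.828). The signal of 1397246_at averaged 1852 ± 238 in aged rats and 1971 ± 241 in young rats, with a difference of -0.09 (limma adjusted p = 0.900). The dimmest, 1370652_at, was 185 to 390 in aged rats, against 169 to 723 in young rats. Its highest value came from young rat 2, and without this rat its log2 difference was 0.08 in place of -0.19. Truncated and full-length TrkB transcripts exist in brain, and which of them each probe set reads was not analysed here.

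Ntrk3 (chr1:141526192-141913575), the TrkC gene, had 1 probe set with nearly equal means, 179 ± 31.5 in aged rats and 179 ± 30.0 in young rats (SD). Its signal spanned 121 to 207 in aged rats, against 138 to 214 in young rats. The log2 difference was 0.00 to 2 decimals with a 95% interval of -0.33 to 0.32 (limma adjusted p = 0.999). Differences within this interval are not excluded by 6 arrays per group.

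Ngfr (chr10:81012077-81030305), the p75 receptor that binds all neurotrophins, was the 1 gene below the cutoff. It exceeded the cutoff signal of 19.7 on 1 of the 12 arrays, that of aged rat 2. The signal was 5.2 to 25.8 (median 7.84) in aged rats, against 1.4 to 10.5 (median 3.68) in young rats. Values below the cutoff were not read as levels, and Ngfr was left out of the test. Without the filter its log2 difference was 1.41 with an SE of 0.59, and the limma p was 0.0361 before and 0.630 after adjustment over 31099 probe sets.

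Sort1 (chr2:198609466-198690481), which encodes sortilin, a sorting receptor that binds neurotrophin precursors, had 2 probe sets. The brighter, 1372728_at, varied least of all members, with 3960 to 4308 in aged rats, against 3824 to 4350 in young rats. Its log2 difference was 0.02 (SE 0.056, 95% interval -0.10 to 0.14, limma adjusted p = 0.972). The dimmer, 1371004_at, was 517 to 898 (median 714) in aged rats, against 481 to 757 (median 598) in young rats. In it, 5 of the 6 aged rats lay above the young median, and the difference was 0.22 (SE 0.14, limma adjusted p = 0.753). After removal of the age means the 2 Sort1 probe sets did not vary together (r = -0.33).

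Vgf (chr12:25274004-25281803) is the precursor of several secreted peptides and, like Bdnf, is carried in dense-core vesicles. Its signal was 1750 to 2312 (median 2101) in aged rats, against 1907 to 2710 (median 2226) in young rats. The lowest rat was an aged one and the highest a young one, with wide overlap between. The log2 difference was -0.14 (SE 0.10, 95% interval -0.36 to 0.08, limma adjusted p = 0.783).

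**Figure D3:**
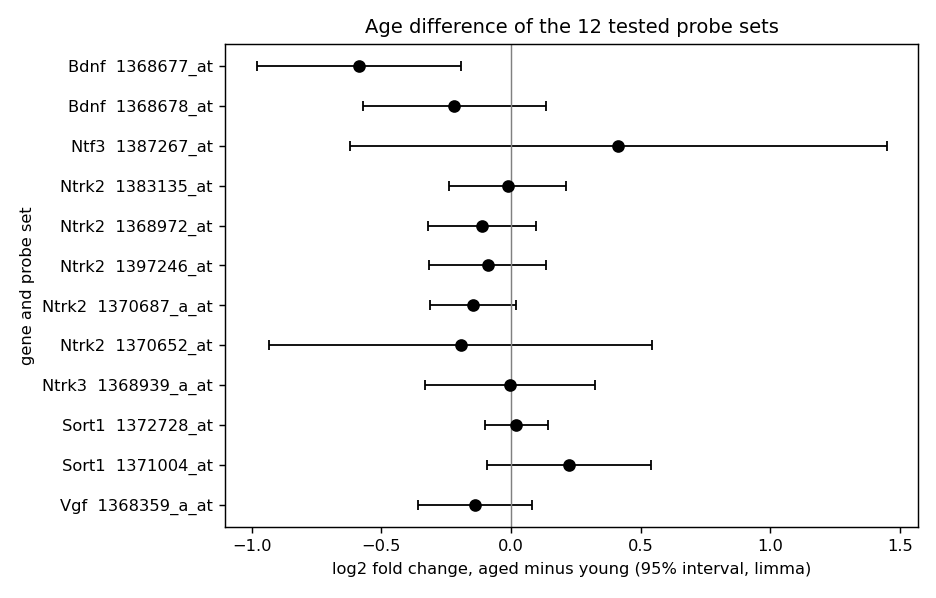
Log2 difference, aged minus young (x axis), of each of the 12 tested probe sets (y axis), with points for the limma estimates and bars for their 95% intervals, unadjusted. The bar of Bdnf 1368677_at, from -0.98 to -0.19, is the only one that does not cross 0, and the widest bars are those of Ntf3 and Ntrk2 1370652_at.

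Across the 12 rats, with the age means removed, the 21 pairs of the 7 genes were compared by each gene's brightest probe set, Ngfr below the cutoff included. None passed an adjusted p of 0.05 in the permutation test. The highest correlation was that of Ntf3 with Ntrk2 (r = 0.67, rho = 0.62), whose permutation p was 0.018 for r and 0.378 after adjustment over the 21 pairs. Without young rats 2 and 3 it was 0.60. The code series ran in opposite directions, with r = 0.89 over the 7 rats of the lower series and r = -0.66 over the 5 rats of the higher series, which are too few for a test.

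Bdnf and Vgf were not related over all 12 rats (r = -0.02, rho = 0.03, permutation p = 0.950). In aged rats alone r was -0.64 (exact permutation p = 0.178), and in young rats alone it was 0.65 (exact permutation p = 0.153). By rank the young rats gave rho = 0.89 (exact permutation p = 0.0333), and the aged rats gave rho = -0.71 (exact permutation p = 0.136). These p-values are not adjusted, and whether the relation differs between the ages was not tested. The code series differed in sign here too, with r = -0.33 over the 7 rats of the lower series and r = 0.91 over the 5 rats of the higher series, again with no test.

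The genes whose signal followed Bdnf 1368677_at most closely across the 12 rats, after removal of the age means, were Fkbp1a (r = 0.96), which encodes the binding protein of the drug rapamycin, the RNA-binding factor Celf2 (0.92), the Kit ligand Kitlg (0.91), the cyclin-dependent kinase Cdk14 (0.91) and Prkar2a (0.91), a regulatory subunit of protein kinase A. These are the 5 highest of 16254 probe sets and carry no test. Their r values were not computed again without aged rat 6 and young rat 4, on which the relation between the 2 Bdnf probe sets largely rested. For Vgf the 5 were Habp4 (0.96), Map4k3 (0.96), Ints6l (0.95), Ufc1 (0.95) and Amn1 (0.93), so neither gene was among the other's 5. The points share the array of each rat.

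The pathway around the receptors was described with 10 lists of genes, each gene represented by its brightest probe set. Of 172 listed genes, the 7 members left out, 143 were tested. None passed an adjusted p of 0.05 with limma, and 3 (2.10%) were higher and 4 (2.80%) lower in aged rats at an unadjusted p up to 0.05. Over all 13253 genes tested by their brightest probe set, 0.0302% passed the adjusted threshold, and 5.98% were higher and 2.29% lower at the unadjusted one. By their means 65 of the 143 genes were higher and 78 were lower, the median log2 difference being -0.02, against 56.9% higher and a median of 0.02 over all genes.

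Among the other neurotrophin genes, receptors and sortilin relatives, 5 were tested, with 4 higher and 1 lower by the mean, and Ntf4 was below the cutoff. Nradd, a relative of p75 that lacks most of the outer part of the receptor, averaged 231 ± 49.0 in aged rats and 182 ± 42.2 in young rats (SD), a log2 difference of 0.36 (limma adjusted p = 0.655). The sortilin relative Sorcs2 averaged 451 ± 31.2 in aged rats and 502 ± 41.7 in young rats, a difference of -0.15 (limma adjusted p = 0.667). Of 11 genes of precursor cleavage, 7 were higher and 4 lower by the mean, and none reached an unadjusted p of 0.05. The proprotein convertase Pcsk6 differed by 0.41 and the matrix protease Mmp9 by -0.59, with limma adjusted p-values of 0.697 and 0.745.

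Downstream of the Trk receptors the differences were of both signs. Of 26 adaptor and endocytosis genes, 14 were higher and 12 lower by the mean. Gab1, a docking protein that recruits PI3 kinase, averaged 894 ± 136 in aged rats and 676 ± 93.5 in young rats (SD). Its log2 difference was 0.40 (SE 0.12), with a limma p of 0.00706 before and 0.443 after adjustment. Ptpn11, the phosphatase that binds Gab1, averaged 5125 ± 562 in aged rats and 4202 ± 511 in young rats, a difference of 0.29 (SE 0.099, limma adjusted p = 0.502). In the PI3 kinase and Akt branch 10 genes were higher and 11 lower. There Eif4ebp1, the translation repressor that mTOR phosphorylates, averaged 269 ± 29.7 in aged rats and 208 ± 17.3 in young rats, a difference of 0.37 (SE 0.086), with a limma p of 0.0012 before and 0.305 after adjustment. Pik3r3, a regulatory subunit of PI3 kinase, averaged 376 ± 24.3 in aged rats and 414 ± 32.7 in young rats, a difference of -0.14 (limma adjusted p = 0.669).

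In the Ras and MAP kinase branch 11 of 18 listed genes had a probe set of their own, with 5 higher and 6 lower by the mean. Its smallest p-values belonged to Creb1 and Nras, which differed by -0.12 and -0.09. The phospholipase C gamma branch had 6 genes higher and 6 lower. The kinase subunit Camk2a averaged 1917 ± 497 in aged rats and 2530 ± 774 in young rats (SD), a log2 difference of -0.39 (limma adjusted p = 0.677), and Camk2b differed by -0.13. On the p75 side, 9 genes were higher and 10 lower. The GTPase Rhoa averaged 2454 ± 331 in aged rats and 2959 ± 277 in young rats, a difference of -0.28 (limma adjusted p = 0.540), and the transcription factor Jun differed by -0.25 (limma adjusted p = 0.640).

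**Figure D4:**
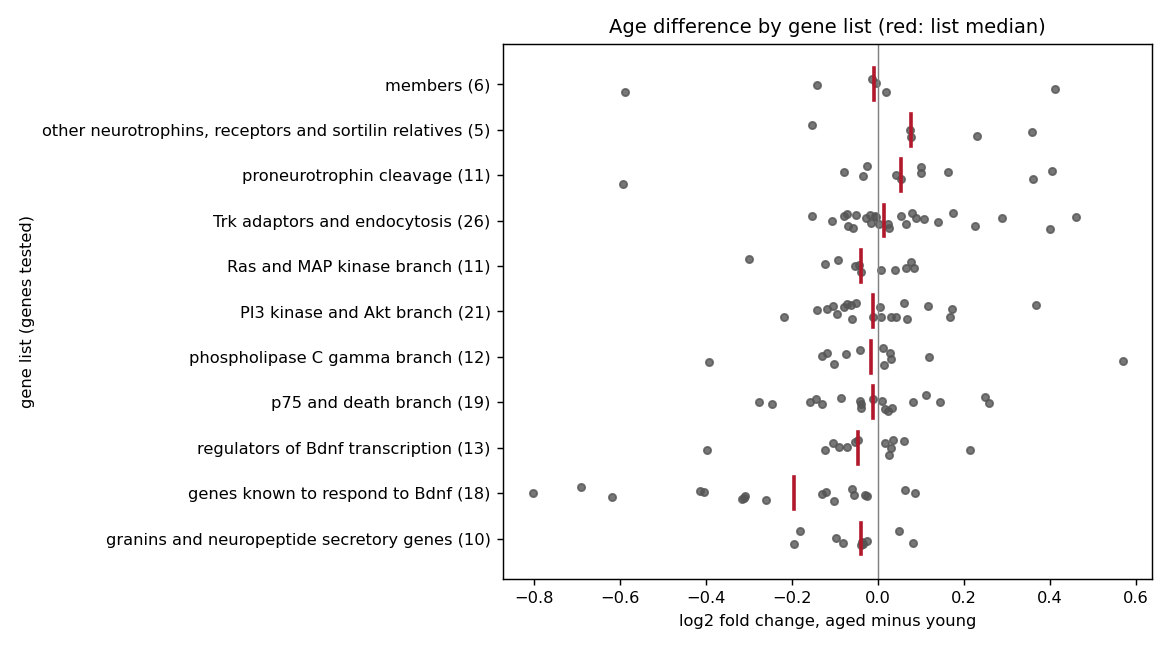
Log2 difference, aged minus young (x axis), of every tested gene among the 7 members and in each of the 10 lists (y axis, number of genes tested in parentheses), with 1 point per gene and a red bar at the median. Most medians lie near 0, and that of the genes known to respond to Bdnf lies at -0.20.

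Upstream, 13 genes that regulate Bdnf transcription were tested, with 6 higher and 7 lower by the mean. Crem, which encodes activators and repressors that bind the cyclic AMP response element, averaged 746 ± 96.2 in aged rats and 984 ± 132 in young rats (SD). Its log2 difference was -0.40 (SE 0.12), with a limma p of 0.00521 before and 0.413 after adjustment. The CREB coactivator Crtc1 differed by 0.22 (limma adjusted p = 0.739).

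Of 18 genes known to respond to Bdnf, many of which also follow neuronal activity, 2 were higher and 16 lower by the mean in aged rats, with a median of -0.20. Over all genes tested, 43.1% were lower by the mean. None reached an adjusted p of 0.05 with limma, and none reached an unadjusted p of 0.05. The largest differences, picked after the values were seen, were those of the immediate early genes Egr2, Arc and Fos, at -0.80, -0.69 and -0.62. Their unadjusted limma p-values were 0.252, 0.165 and 0.311. Other immediate early genes of the list differed less, with Nr4a1 at -0.41, Egr1 and Junb at -0.31 and Egr3 at -0.02. Homer1, a scaffold of the postsynapse, differed by -0.12 and Fosb by -0.40. The summed signal of the 18 genes was 34216 to 47736 in aged rats, against 37933 to 63105 in young rats. These groups overlapped.

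Among 10 granins and neuropeptide secretory genes, 2 were higher and 8 lower by the mean. The secretory granule protein Chgb was 3595 to 4012 in aged rats, against 4105 to 4721 in young rats, so the groups did not overlap, as was the case with the same sign for 0.241% of all genes tested. Its log2 difference was -0.19 (SE 0.058), with a limma p of 0.00573 before and 0.421 after adjustment. Scg2, another granin, averaged 2893 ± 349 in aged rats and 3263 ± 223 in young rats (SD), a difference of -0.18 (limma adjusted p = 0.676).

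Markers of the cell types that make or receive neurotrophins were read in the same arrays. Of 12 neuron markers, 2 were higher and 10 were lower by the mean in aged rats, at a median log2 difference of -0.08 and summed signals of 61853 to 69081 in aged rats, against 63452 to 76708 in young rats. Astrocyte markers, of a cell type that expresses truncated TrkB, were higher by the mean for 7 of 9, at a median log2 difference of only 0.04. Their sums were 56591 to 70227 in aged rats, against 55036 to 68006 in young rats. Those of oligodendrocytes (8 of 8, median 0.22, sums of 34364 to 55138 in aged rats and 33161 to 48657 in young rats) and microglia (9 of 10, median 0.25, sums of 5322 to 10492 in aged rats and 4689 to 6395 in young rats) were higher as well. None of these lists held a marker below the cutoff on all arrays, and no marker of the 4 passed an adjusted p of 0.05 with limma. At an unadjusted p up to 0.05, 2 microglia markers were higher in aged rats and none of the others was called. Over all 13253 genes tested, 5.98% were higher and 2.29% lower at that threshold. By the mean, 56.9% of all genes were higher and 43.1% lower. Array medians were 168 to 194 in aged rats, against 162 to 172 in young rats. The part of cell makeup and of the arrays in the Bdnf difference was not tested.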

How the data were processed

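RNA of 12 rats, 1 array each, was analysed. The deposited values are signal intensities of probe sets, not log-transformed, whose mean on each array was 500.1 once 2% were trimmed from each end. MAS5, GCRMA and R 2.7.1 are listed in the submitters' processing notes. The methods name gcRMA for the deposited signals and elsewhere give a target intensity of 500 for Affymetrix scaling. The trimmed mean of every array lies at this target, so the values read as scaled signals and not as the gcRMA signals of the methods. The order of these steps is not given in the sources used here. Since the values are linear, their log2 was taken with no further normalization, and a signal of 19.7, which is the methods' gcRMA cutoff of 4.3 taken as a log2 value, had to be exceeded on 3 arrays. The methods chose that cutoff on gcRMA signals. Here 28193 of the 31099 probe sets passed it, so passing it is weak evidence of expression. The number of arrays limits the precision.

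Symbols came from the platform annotation, which gives 20832 probe sets 1 symbol, 436 several and 9831 none. Names without a probe set of their own were not analysed here. Aged and young rats were compared by probe set in limma 3.58.1 under R 4.3.3 (lmFit, then eBayes). Tests were two-sided and p-values were adjusted by Benjamini-Hochberg over all 28193 probe sets. Genes of lists were read from this fit by their probe set with the highest mean. Single values had exact permutation tests over every split of 6 against 6 rats, and correlations had 100000 permutations of age-centred log2 signals with SciPy 1.17.1. Pandas 2.3.3, NumPy 2.4.6 and matplotlib 3.10.9 under Python 3.11.15 made the tables and plots. The fit was tested on simulated data with known changes.

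The members and the lists were chosen with earlier results of these data known. Named are all members, the 2 genes with the smallest p of each pathway list, and the 5 genes most like Bdnf and Vgf. Arc, Egr1, Egr2, Egr3, Fos, Junb and Nr4a1 were named after their values were seen. The labels say no more of the origin of the animals than 1 array per rat. By the methods the rats came from the NIA aging colony, and those with arrays were chosen by order of entry. The p-values set each age difference against the variation between these rats. Alternatives were other normalizations, offsets, filters, variance models and array weights, the methods' t-test, blocks for subject number and code series, and each rat left out. Maze and sleep values per rat were not used here.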

Additional observations from a re-analysis of the deposited data

Results flagged for a closer look

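In the Ntrk2 probe set 1397246_at, aged rat 6 stood apart from its group, with a signal of 2313 against 1668 to 1858 in the other 5 aged rats. The gap to the nearest aged rat was 0.671 of the range of the group, above Dixon's critical value of 0.625 for 6 samples. The young rats spanned 1658 to 2293. Of the 26 groups of 6 rats looked at (13 probe sets at 2 ages), this was the only 1 past the critical value, and chance alone passes about 5% of groups. The same rat had the lowest Bdnf signal and the highest array median (194) of the 12 arrays.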

How the results depend on the processing

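The lower mean of Bdnf 1368677_at in aged rats kept its sign under all 26 alternatives run on this probe set, with log2 differences of -0.87 to -0.46, unadjusted p-values of 0.00177 to 0.0420 and adjusted p-values of 0.299 to 0.999. Leaving out 1 rat at a time gave -0.69 to -0.47, and the mean of both Bdnf probe sets gave -0.40. No member passed an adjusted p of 0.05 under any alternative. The number with an unadjusted p up to 0.05 was 1 as reported, 3 after median centring (with Vgf and Ntrk2 1370687_a_at added), 2 with no filter (Ngfr added), and 1 to 2 when rats were left out singly, where aged rat 3 added Ntrk2 1370687_a_at and aged rat 6 added Sort1 1371004_at. Without aged rats 2 and 6, a setting chosen after the data were seen, it was 2.

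Small differences changed sign. That of Ntrk2 1383135_at was 0.019 after quantile normalization, 0.13 in the higher code series alone and -0.064 to 0.045 with single rats left out. That of 1397246_at was 0.12 in the higher series, and that of 1370652_at was -0.34 to 0.080 with single rats left out, the highest without young rat 2. Ntrk3 was at 0.033 with the code series as a block, 0.040 and 0.023 in the lower and higher series alone, and -0.076 to 0.10 with single rats left out. Sort1 1372728_at was at -0.051 after median centring and at -0.0014 to 0.036 with single rats left out, the lowest without young rat 3. The causes were not tested.

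With the subject number as a replicate block, Bdnf kept a log2 difference of -0.59 (SE 0.19, limma adjusted p = 0.428) and no member's call changed. After the age mean of each probe set was removed, same-numbered aged and young rats correlated at -0.03 to 0.11. Of the 6 aged rats, 2 correlated best with the young rat of their own number, so the numbers are not treated as pairs. Over all probe sets, 7 passed the adjusted threshold as reported, 4 after quantile normalization, 3 after median centring, 2 with an intensity trend or with the replicate block, 0 in either code series alone and 0 to 10 with single rats left out (0 without aged rat 1, 3 or 6 or young rat 1, 1 without young rat 4, and 4 without aged rat 2 or young rat 5). The split of higher against lower calls at an unadjusted p up to 0.05 was 1598 to 600 as reported, 989 to 915 after quantile normalization and 875 to 1425 after median centring. The median log2 difference of all probe sets was 0.03 as reported, 0.00 to 2 decimals after quantile normalization and -0.04 after median centring. Dim signals limit Ngfr, Ntf3 and Bdnf 1368678_at.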

Other observations

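The ratio of the Bdnf probe set 1368677_at to 1368678_at, a comparison chosen after the values were seen and so given with no test, was 3.10 to 5.23 in aged rats, against 5.10 to 6.79 in young rats. Its mean log2 was 2.19 ± 0.28 in aged rats and 2.56 ± 0.15 in young rats (SD, n = 6 each), a difference of -0.37. Which transcripts they read was not analysed here. Genes of the oligodendrocyte progenitor list, whose cells carry TrkB and TrkC, were higher by the mean for 5 of 5 in aged rats (median 0.21), and those of the endothelium and mural list for 7 of 9 (median 0.15), while 6 of 9 meninges markers were lower (median -0.11). The differences of the progenitor list were 0.04 for Pdgfra, 0.17 for Cspg4, 0.21 for Olig1, 0.25 for Sox10 and 0.44 for Olig2. How far these genes separate progenitors from mature oligodendrocytes was not tested. None of the genes of these 3 lists passed an adjusted p of 0.05 with limma. At an unadjusted p up to 0.05, Olig2, Cldn5 and the meninges marker Slc6a13 were higher and the meninges marker Lum was lower. Over all genes tested, 5.98% were higher and 2.29% lower at that threshold, and 56.9% were higher by the mean.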
